A study of Danio rerio with 10 samples.

Results

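Of the 32233 rows in the deposited expression table, 9 carry the symbols of genes that mark endothelial cells or that encode scavenger receptors of vessel walls: mrc1a, stab1, stab2, lyve1b, kdrl, tie1, cdh5, sox18 and fli1a. They were taken by symbol, and each had 1 row. The mutant group comprised 5 libraries (replicates 1, 3, 4, 5 and 6) of gata1-positive erythroid cells from zebrafish embryos carrying a mutation in sf3b1, which encodes a splicing factor subunit. The sibling group comprised 5 libraries (replicates 2 to 6) of the same sorted cells from siblings, which are titled as wild type. All embryos were 24 hours post fertilization. The allele, the reporter used to sort for gata1, the number of embryos per library and whether libraries came from separate clutches are not stated in the labels. The p-values therefore cover only the spread among these libraries, part of which may be technical.

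Endothelial cells line blood and lymphatic vessels and, in the zebrafish embryo, arise from mesoderm that also gives rise to primitive red cells. kdrl, tie1 and cdh5 act in growth factor signalling and cell adhesion throughout the vessel wall, under transcription factors that include fli1a and sox18. A subset of endothelial cells, above all in veins and lymphatics, also carries scavenger receptors that take up hyaluronan, modified proteins and other waste from the blood. In zebrafish mrc1a, stab1, stab2 and lyve1b mark these vessels, and their mammalian counterparts are also found on some macrophages. None of the 9 is known as a marker of red cells. In bulk samples, fewer cells of a type and less RNA per cell cannot be told apart.

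The values are FPKM, fragments scaled by transcript length and by the library's mapped total, so levels may be compared between genes per length. The FPKM sum of a library ran from 293816 to 422870. The depth relative to mutant 1 ran from 0.578 in mutant 3 to 1.25 in sibling 6, and absolute depth is unknown. It was read from the most frequent ratio to mutant 1 among rows under 0.3 FPKM in both libraries. That ratio held a share of only 0.096 to 0.153 of such rows. sf3b1 itself lay at 16.0 to 21.3 FPKM in the mutants and at 36.3 to 43.9 FPKM in the siblings. Sibling 2 carries a genotype tag that says mutant, against its title, and had 41.0 FPKM of sf3b1, inside the range of the siblings. The 16 erythroid markers summed to 2768 to 9403 FPKM in mutants and 5468 to 23938 FPKM in siblings. Each of the 16 was tested, and none was listed at 0 in a library.

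The 4 scavenger and clearance receptors and the transcription factor gene sox18 were lower in mutants, while the receptor kinase genes kdrl and tie1, the cadherin gene cdh5 and the transcription factor gene fli1a did not pass the test. In limma, with Benjamini-Hochberg adjustment over all 13003 rows that averaged 1 FPKM or more, 5 of the 9 fell and 0 rose at an adjusted p under 0.05. Of all tested rows 8.74% were called lower and 5.59% higher, 14.3% in all, which is 1137 lower and 727 higher. After quantile normalization the same split was 987 higher and 1008 lower. The median log2 fold change of FPKM + 1 was -0.79 over the 9 genes and -0.06 over all tested rows. Each of the 9 passed the filter on low values. As the 9 were chosen with earlier results of these data known, their share beside that of all rows is only a description. Without sibling 2 the number that fell was 4, as stab2 was no longer called. Leaving out mutant 1, 3 or 5 or sibling 3, 4 or 5 alone also gave 4, again without stab2. With sibling 2 counted as a mutant the number was 0.

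**Figure D1:**
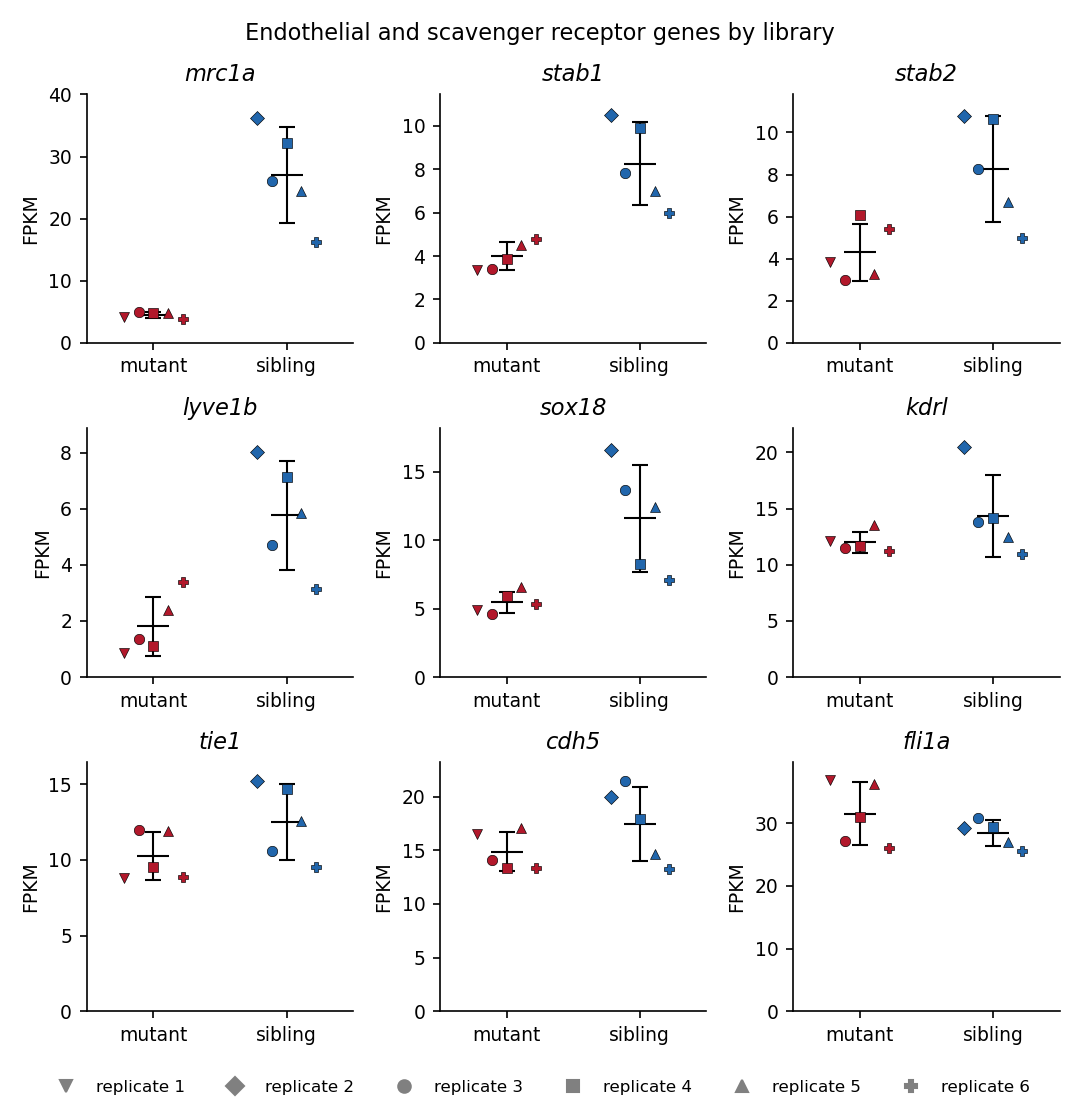
FPKM of the 9 genes in each library, with 5 mutant libraries on the left of each panel and 5 sibling libraries on the right; bars give the mean and SD, and marker shapes give replicate numbers. For mrc1a, stab1 and sox18 every mutant lies below every sibling, whereas the groups overlap for the other 6 genes.

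mrc1a encodes a mannose receptor, a C-type lectin that binds and internalises glycoproteins. Its row (ENSDARG00000102100, GRCz10 chromosome 7, 58589600 to 58650000) read 4.18, 4.96, 4.85, 4.80 and 3.82 FPKM in mutants 1, 3, 4, 5 and 6. In siblings 2 to 6 it read 36.3, 26.1, 32.2, 24.5 and 16.2 FPKM. The mutants were close together and the highest of them lay far under the lowest sibling, with a spread of 1.30-fold among mutants and 2.24-fold among siblings. The means were 4.52 ± 0.49 FPKM in mutants and 27.1 ± 7.68 FPKM in siblings (SD, n = 5 each), a ratio of 0.167. On the log2(FPKM + 1) scale, which holds for all log2 fold changes given here, the difference of mutants from siblings was -2.30 (SE 0.19, limma adjusted p = 3.13e-05). That was the 28th lowest fold change and the 24th smallest p of the 13003 tested rows. The two-sided exact permutation p over libraries was 0.0079, the smallest that 252 relabellings can give.

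Its paralog mrc1b was present at a far lower level. mrc1b averaged 0.422 ± 0.11 FPKM in mutants and 1.29 ± 0.20 FPKM in siblings (SD, n = 5 each) and was left out of the main test by the filter on low values. Every mutant, at 0.243 to 0.491 FPKM, lay below every sibling, at 1.13 to 1.63 FPKM. With no filter the log2 fold change of FPKM + 1 was -0.69 (limma adjusted p = 0.00977), a scale that understates changes at such levels. No source used here says how fragments shared between paralogs were assigned.

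stab1 and stab2 encode the stabilins, large scavenger receptors that clear hyaluronan and modified proteins from the blood. stab1 (ENSDARG00000076484, chromosome 22, 10251738 to 10324699) read 3.34, 3.42, 3.88, 4.51 and 4.79 FPKM in mutants 1, 3, 4, 5 and 6. The sibling values were 10.5, 7.86, 9.92, 7.02 and 5.99 FPKM for siblings 2 to 6. The groups did not overlap, although mutant 6 and sibling 6 were near each other. The means were 3.99 ± 0.64 and 8.26 ± 1.91 FPKM in mutants and siblings (SD, n = 5 each), and the log2 fold change was -0.88 (SE 0.17, limma adjusted p = 0.00562).

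stab2 (ENSDARG00000045748, chromosome 4, 10722946 to 10764698) read 3.84, 2.99, 6.07, 3.28 and 5.41 FPKM in mutants 1, 3, 4, 5 and 6. Siblings 2 to 6 had 10.8, 8.28, 10.6, 6.71 and 4.98 FPKM. Sibling 6 lay below mutants 4 and 6, so the groups overlapped. The means were 4.32 ± 1.35 and 8.28 ± 2.51 FPKM in mutants and siblings (SD, n = 5 each), with a log2 fold change of -0.79 (SE 0.23, limma adjusted p = 0.0376). The call was not stable. It ended without mutant 1, mutant 3 or mutant 5 (adjusted p = 0.0604, 0.0904 and 0.0857 in limma) and without sibling 2, 3, 4 or 5 (0.0729, 0.0716, 0.0934 and 0.0544). The row overlaps wnt16 and si:dkey-207j16.5, whose means over all libraries were 0.741 and 0.690 FPKM.

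lyve1b encodes a hyaluronan receptor used as a marker of veins and lymphatics. Its row (ENSDARG00000062483, chromosome 18, 16755247 to 16758322) read 0.865, 1.35, 1.09, 2.39 and 3.38 FPKM in mutants 1, 3, 4, 5 and 6. Siblings 2 to 6 had 8.02, 4.70, 7.12, 5.85 and 3.12 FPKM. Mutant 6 lay above sibling 6, and the other 4 mutants lay below every sibling. The means were 1.82 ± 1.05 and 5.77 ± 1.94 FPKM in mutants and siblings (SD, n = 5 each), and the log2 fold change was -1.29 (SE 0.27, limma adjusted p = 0.00976). Its paralog lyve1a was listed at 0 in 8 of 10 libraries, among them all 5 mutants.

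kdrl, tie1 and cdh5 act in endothelial signalling and adhesion. kdrl (ENSDARG00000105215, chromosome 14, 32643455 to 32704641), a receptor of vascular endothelial growth factor (VEGF), read 12.1, 11.5, 11.7, 13.5 and 11.2 FPKM in mutants 1, 3, 4, 5 and 6. In siblings 2 to 6 it read 20.5, 13.8, 14.2, 12.4 and 11.0 FPKM. Sibling 2 stood highest and sibling 6 lay below every mutant. The means were 12.0 ± 0.91 and 14.4 ± 3.64 FPKM in mutants and siblings (SD, n = 5 each), and the log2 fold change of -0.22 had a 95% confidence interval of -0.56 to 0.13 (limma adjusted p = 0.417).

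tie1 (ENSDARG00000004105, chromosome 6, 33998984 to 34024189), a receptor tyrosine kinase needed for vessel integrity, read 8.80, 11.9, 9.55, 11.9 and 8.90 FPKM in mutants 1, 3, 4, 5 and 6. The same gene was at 15.2, 10.5, 14.7, 12.6 and 9.50 FPKM in siblings 2 to 6. The groups overlapped, with siblings 2, 4 and 5 above every mutant. The means were 10.2 ± 1.59 and 12.5 ± 2.49 FPKM in mutants and siblings (SD, n = 5 each), with a log2 fold change of -0.26 (95% confidence interval -0.61 to 0.10, limma adjusted p = 0.331).

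cdh5 encodes VE-cadherin, the adhesion molecule of endothelial junctions. Its row (ENSDARG00000075549, chromosome 7, 44106370 to 44180006) read 16.5, 14.0, 13.3, 17.1 and 13.3 FPKM in mutants 1, 3, 4, 5 and 6. In siblings 2 to 6 it read 20.0, 21.5, 17.9, 14.6 and 13.3 FPKM. Siblings 5 and 6 lay within the range of the mutants or just under it. The means were 14.9 ± 1.80 and 17.5 ± 3.48 FPKM in mutants and siblings (SD, n = 5 each), with a log2 fold change of -0.21 (95% confidence interval -0.55 to 0.14, limma adjusted p = 0.432).

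Of the transcription factor genes sox18 passed the test and fli1a did not. sox18, a member of the SoxF group that acts in vessel and lymphatic development, fell. Its row (ENSDARG00000058598, chromosome 23, 8862173 to 8864910) read 4.87, 4.62, 5.92, 6.55 and 5.32 FPKM in mutants 1, 3, 4, 5 and 6. The sibling values were 16.6, 13.7, 8.23, 12.4 and 7.09 FPKM for siblings 2 to 6. Every mutant lay below every sibling, with mutant 5 and sibling 6 the nearest. The means were 5.46 ± 0.79 and 11.6 ± 3.92 FPKM in mutants and siblings (SD, n = 5 each), and the log2 fold change was -0.91 (SE 0.21, limma adjusted p = 0.0146). sox7, another SoxF gene, averaged 11.7 ± 4.74 and 9.69 ± 3.10 FPKM in mutants and siblings (limma adjusted p = 0.634).

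fli1a, an ETS factor gene of endothelial and early blood cells, had the highest level of the 9 in both groups. Its row (ENSDARG00000054632, chromosome 18, 48429318 to 48493178) read 36.9, 27.2, 30.9, 36.2 and 26.1 FPKM in mutants 1, 3, 4, 5 and 6. Siblings 2 to 6 had 29.3, 30.7, 29.3, 27.0 and 25.5 FPKM. The groups overlapped, and 3 mutants lay above the highest sibling. The means were 31.5 ± 5.02 and 28.4 ± 2.08 FPKM in mutants and siblings (SD, n = 5 each), with a log2 fold change of 0.13 (95% confidence interval -0.17 to 0.43, limma adjusted p = 0.569). Its paralog fli1b averaged 12.7 ± 1.99 and 14.8 ± 1.88 FPKM in mutants and siblings (limma adjusted p = 0.377).

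**Figure D2:**
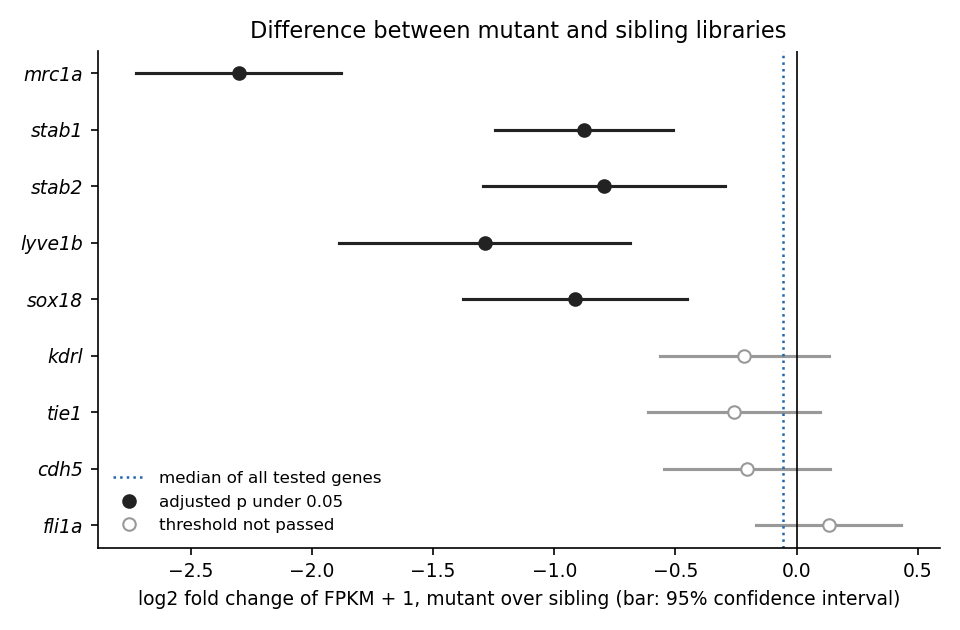
Log2 fold change of FPKM + 1, mutant over sibling, for the 9 genes, with 95% confidence intervals from limma; filled points had an adjusted p under 0.05, open points did not, and the dotted line is the median of all tested rows. mrc1a stands at -2.30, the other called genes at -1.29 to -0.79, and kdrl, tie1, cdh5 and fli1a at -0.26 to 0.13 with intervals that include 0.

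Groups did not overlap for 3 of the 9 genes, with the mutants lower in each, against 7.26% of all tested rows with mutants lower and 12.2% in either direction. The order of mean levels differed between the groups only in the place of mrc1a. In mutants the mean levels ran from fli1a through cdh5, kdrl, tie1, sox18, mrc1a, stab2 and stab1 to lyve1b, and mrc1a was in place 6. In siblings mrc1a was in place 2, followed by cdh5, kdrl, tie1, sox18, stab2, stab1 and lyve1b. Neighbouring means lay further apart than the larger of their SDs for 6 of 8 pairs in mutants, the exceptions being mrc1a with stab2 and stab2 with stab1. In siblings that held for 2 of 8 pairs, mrc1a with cdh5 and stab1 with lyve1b, so the place of mrc1a next to fli1a lies within the spread. The mean of mrc1a lay above 49.9% of tested rows in mutants and above 89.1% in siblings, while that of kdrl lay above 76.5% in mutants and 79.9% in siblings.

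Set against kdrl in the same library, the scavenger receptors and sox18 had lower mean ratios in mutants. The ratio is a description and measures no share of endothelial cells. The log2 ratio of FPKM to kdrl was -1.41 ± 0.16 in mutants and 0.89 ± 0.23 in siblings for mrc1a (SD, n = 5 each), with ranges of -1.55 to -1.21 in mutants and 0.57 to 1.19 in siblings. mrc1a thus had a lower FPKM than kdrl in each mutant and a higher one in each sibling. For stab1 the ratio was -1.60 ± 0.24 in mutants and -0.80 ± 0.17 in siblings, and for sox18 -1.14 ± 0.16 in mutants and -0.35 ± 0.35 in siblings (SD, n = 5 each), also without overlap. The ranges overlapped for stab2, at -2.04 to -0.95 in mutants and -1.14 to -0.41 in siblings, and for lyve1b, at -3.81 to -1.73 in mutants and -1.81 to -0.99 in siblings. For cdh5 the mean ratio was 0.30 in mutants and 0.29 in siblings, and for tie1 -0.24 in mutants and -0.19 in siblings. The mean ratio of fli1a was higher in mutants, at 1.38 ± 0.16, than in siblings, at 1.01 ± 0.28 (SD, n = 5 each). Its ranges just overlapped, at 1.217 to 1.611 in mutants and 0.517 to 1.221 in siblings. Whether the changes of single genes differ from that of kdrl was not tested.

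**Figure D3:**
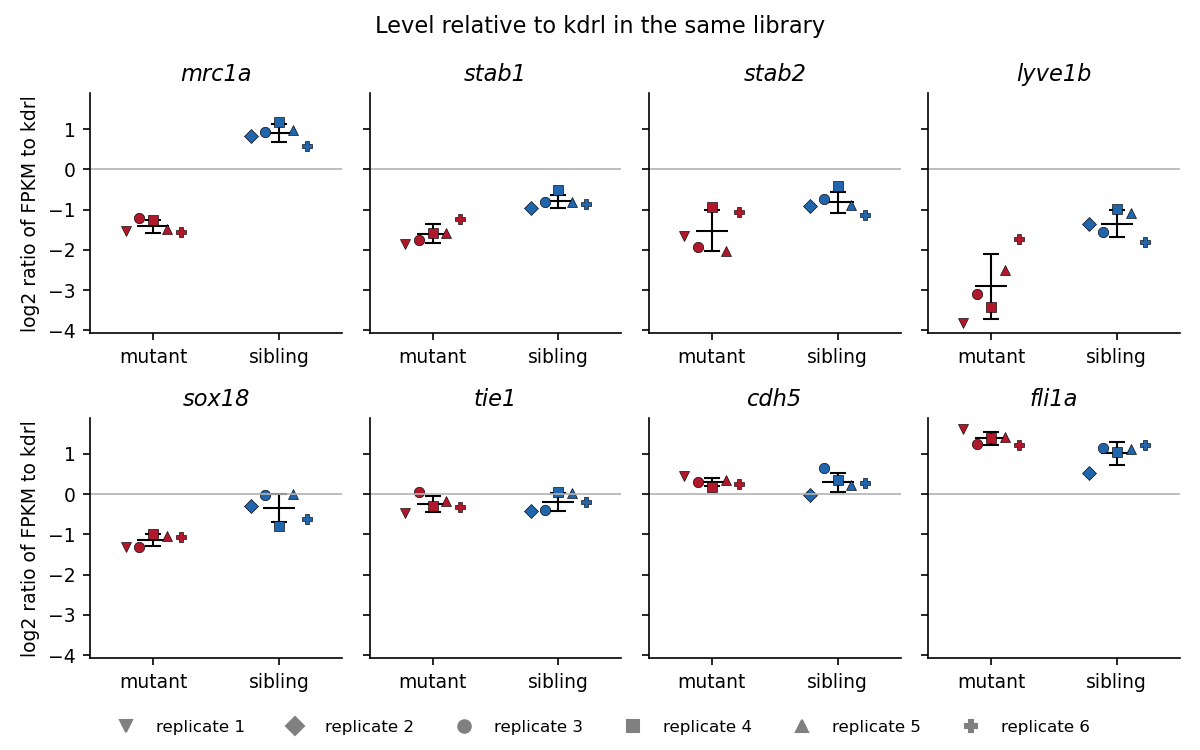
Log2 ratio of each gene's FPKM to that of kdrl in the same library, mutants on the left and siblings on the right of each panel, with mean and SD bars and marker shapes for replicate numbers. The mrc1a points lie between -1.55 and -1.21 in mutants and between 0.57 and 1.19 in siblings, while those of tie1 and cdh5 overlap between the groups.

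The siblings shared their extremes across the genes. Sibling 6 had the lowest sibling value of each of the 9 genes, and sibling 2 had the highest of 7, all but cdh5 and fli1a. Among mutants no library held that place for more than 3 genes. Sibling 2 also had the highest sibling sums of the muscle, mesenchyme and epidermal markers, at 318, 185 and 924 FPKM. It did not for the macrophage or neutrophil markers. The coefficient of variation for mrc1a was 10.9% in mutants and 28.4% in siblings, for kdrl 7.55% in mutants and 25.3% in siblings, and for sox18 14.4% in mutants and 33.8% in siblings. lyve1b, the lowest of the 9, had 57.9% in mutants and 33.6% in siblings, and fli1a 15.9% in mutants and 7.32% in siblings. The erythroid marker sum was 5468, 13138, 16724, 12221 and 23938 FPKM in siblings 2 to 6. Sibling 2, highest for 7 of the 9 genes, had the lowest sum, and sibling 6, lowest for all 9, had the highest. Against that order, sibling 4 lay above siblings 3 and 5 both in this sum and in mrc1a. Whether the sum and the levels of the 9 genes are related was not tested.

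The rows with the most similar deviations across libraries were found for each gene that fell. Likeness was measured by the Pearson correlation of deviations of log2(FPKM + 1) from the group mean over the 10 libraries, among 6145 rows averaging 5 FPKM or more, and is given as a description without a test. The row closest to mrc1a was flt4, the VEGF receptor of venous and lymphatic endothelium (r = 0.93), and the glutamine synthetase gene glula was also among the 3 closest (r = 0.91). The other of the 3, a SNORA3 row, was listed at 0 in every mutant, so that its r of 0.92 rests on the 5 siblings alone. As mrc1a varied less among mutants than among siblings, its r with flt4 and glula also rests mainly on the siblings. stab1 and lyve1b shared pdcd7 as the closest row (r = 0.91 and 0.94), and kri1 was closest to sox18 (r = 0.95) and a U3 small nucleolar RNA row to stab2 (r = 0.92). The highest of 6145 such values over 10 libraries can be large without any relation.

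Other endothelial genes were counted in the same test, in which 14.3% of all rows were called. Among 10 receptors and co-receptors of VEGF and angiopoietin 0 rose and 0 fell, and their median log2 fold change was -0.17. At an unadjusted p under 0.05 in limma 3 were lower and 0 higher. flt4 averaged 5.11 ± 0.56 and 8.30 ± 2.95 FPKM in mutants and siblings (SD, n = 5 each; limma adjusted p = 0.0944). It passed without sibling 6 (0.0254), the lowest sibling at 4.71 FPKM, within the mutant range. Leaving out each library in turn gave adjusted p of 0.0254 to 0.184 in limma. tek, the angiopoietin receptor related to tie1, averaged 4.60 and 6.77 FPKM in mutants and siblings (limma adjusted p = 0.104), nrp2a, a co-receptor, 10.8 and 15.9 FPKM (0.137), and plxnd1, a semaphorin receptor, 27.5 and 36.2 FPKM (0.244). kdr, the second zebrafish gene of the kdrl kind, was at 1.73 ± 0.26 and 2.08 ± 0.16 FPKM in mutants and siblings (limma adjusted p = 0.452). Of 11 matched ligand genes 3 were tested and 0 were called (0 at an unadjusted p under 0.05 in limma), with angpt1, the main activating ligand of tek, at 7.71 and 8.61 FPKM and vegfc, the ligand of flt4, at 2.64 and 2.79 FPKM in mutants and siblings.

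Of 19 tested genes of endothelial junctions and surface 1 fell and 0 rose, where 8.74% of all tested rows fell. Their median log2 fold change was -0.09, and at an unadjusted p under 0.05 in limma 3 were lower and 0 higher. The one that fell was robo4, an endothelial guidance receptor, at 1.34 ± 0.59 and 3.32 ± 1.33 FPKM in mutants and siblings (SD, n = 5 each; limma adjusted p = 0.0402). The call did not hold without mutant 4, 5 or 6 (0.0844, 0.0869 and 0.0821) and without sibling 2, 3, 4 or 5 (0.0798, 0.0614, 0.1009 and 0.0763). heg1, s1pr1 and pecam1, which act in junction stability, lipid signalling and adhesion, were not called (adjusted p = 0.138, 0.159 and 0.218 in limma). The groups of heg1 did not overlap, at 3.275 to 3.70 FPKM in mutants and 3.76 to 5.12 FPKM in siblings. Of 12 arterial, venous and Notch genes 0 were called, and at an unadjusted p under 0.05 in limma 1 was higher and 0 were lower. hey2, an arterial Notch target gene, averaged 4.36 ± 1.37 and 2.36 ± 1.08 FPKM in mutants and siblings (SD, n = 5 each; limma adjusted p = 0.0874). It passed without sibling 2 (0.0358), the sibling with the highest value. Leaving out each library in turn gave adjusted p of 0.0358 to 0.1895 in limma. ephb4a, a venous ephrin receptor gene, averaged 11.7 and 16.1 FPKM in mutants and siblings (limma adjusted p = 0.293).

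Of all tested rows 8.74% fell, and of 16 tested endothelial and hemangioblast transcription factors 1 fell and 0 rose, with a median of -0.07. It was klf2b, a Kruppel-like factor gene, at 5.10 ± 1.17 and 9.34 ± 1.87 FPKM in mutants and siblings (SD, n = 5 each; log2 fold change -0.76, limma adjusted p = 0.0138), and every mutant lay below every sibling. foxc1a, foxc1b and gata2a averaged 10.3 and 16.4, 2.88 and 5.80, and 22.2 and 18.2 FPKM in mutants and siblings (adjusted p = 0.0596, 0.0744 and 0.197 in limma). foxc1a and foxc1b passed without sibling 3 (0.0187 and 0.0235), the lowest sibling for both. Leaving out each library in turn gave adjusted p of 0.0187 to 0.137 for foxc1a and 0.0235 to 0.154 for foxc1b in limma. At an unadjusted p under 0.05 in limma 3 of the 16 factors were lower and 0 higher.

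Of 12 tested genes among other scavenger and endocytic receptors and their adaptors 2 fell and 0 rose, with a median of -0.02. The share of all tested rows that fell was 8.74%. dab2, a clathrin adaptor gene of venous endothelium and other endocytic cells, averaged 19.4 ± 2.60 and 36.2 ± 7.85 FPKM in mutants and siblings (SD, n = 5 each; log2 fold change -0.85, limma adjusted p = 0.00793). Its groups did not overlap, at 15.3 to 22.4 FPKM in mutants and 24.4 to 43.6 FPKM in siblings. scarb2c, of the family of lysosomal CD36-like receptors, averaged 1.64 ± 1.14 and 4.33 ± 1.22 FPKM in mutants and siblings (0.0258 after adjustment in limma). The call did not hold without mutant 3, sibling 4 or sibling 5 (0.0528, 0.0621 and 0.0658). lrp1aa and ly75 were not called (0.146 and 0.158). Without both mutant 1 and sibling 2 the number that fell in this list was 1.

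Markers of other cell types that a sort could hold were counted in the same test. It called 8.74% of all tested rows lower and 5.59% higher. Of 14 tested macrophage marker rows 6 fell and 0 rose, 8 were not called, and at an unadjusted p under 0.05 in limma 6 were lower and 1 higher. Of the 6 that fell, ptprc, lcp1 and coro1a are genes of white blood cells in general. Those that fell included ptprc, which fell by 1.23 on the log2 scale (limma adjusted p = 0.00123), and mfap4 (12.4 and 34.4 FPKM in mutants and siblings, 0.00345). They also included mpeg1.1 (8.29 and 16.2 FPKM, 0.00715) and csf1rb (0.808 and 2.38 FPKM, 0.00994). In these 4 rows, those with the smallest p of the list, every mutant lay below every sibling, as in 7.26% of all tested rows. For lcp1 and coro1a the groups overlapped. The macrophage gene mpeg1.2, named after its values were seen, was not called, at 7.08 and 4.09 FPKM in mutants and siblings (log2 fold change 0.76, limma adjusted p = 0.0607). One row of the list was called higher after median of ratios scaling, after quantile normalization, with array weights, with the replicate block, without sibling 2, without both mutant 1 and sibling 2, and with sibling 2 counted as a mutant, where 0 were called lower. The macrophage list summed to 154 to 345 FPKM in mutants and 278 to 515 FPKM in siblings. c1qa, c1qb, c1qc and cd74a, also in the macrophage list, were listed at 0 in 8, 7, 7 and 8 of 10 libraries. marco, a macrophage scavenger receptor gene, averaged 0.052 and 0.499 FPKM in mutants and siblings, below the filter of the test. Of 9 neutrophil markers 5 fell and 0 rose, and their sum was 72.2 to 132 FPKM in mutants and 196 to 569 FPKM in siblings. Of 17 epidermal markers 0 were called (3 higher and 0 lower at an unadjusted p under 0.05 in limma), with sums of 442 to 1334 FPKM in mutants and 396 to 924 FPKM in siblings. Their median log2 fold change was 0.32, and 3 lay below 0. In that list 1 row was called higher after quantile normalization, with array weights, without mutant 6 and without sibling 2. The same count held with sibling 2 counted as a mutant. It was 2 with the replicate block and without both mutant 1 and sibling 2.

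The 4 scavenger receptors summed to 12.2 to 17.4 FPKM in mutants and 30.3 to 65.6 FPKM in siblings. kdrl, tie1 and cdh5 together summed to 33.4 to 42.5 FPKM in mutants and 33.7 to 55.6 FPKM in siblings, and the 23 junction and surface genes to 187 to 243 FPKM in mutants and 165 to 300 FPKM in siblings. The macrophage gene with the highest mean in each group was spi1b, a transcription factor gene of myeloid cells, at 50.6 to 151 FPKM in mutants and 86.3 to 196 FPKM in siblings. The part that macrophages, neutrophils or endothelial cells in the sort have in the lower scavenger receptor values was not tested.

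**Figure D4:**
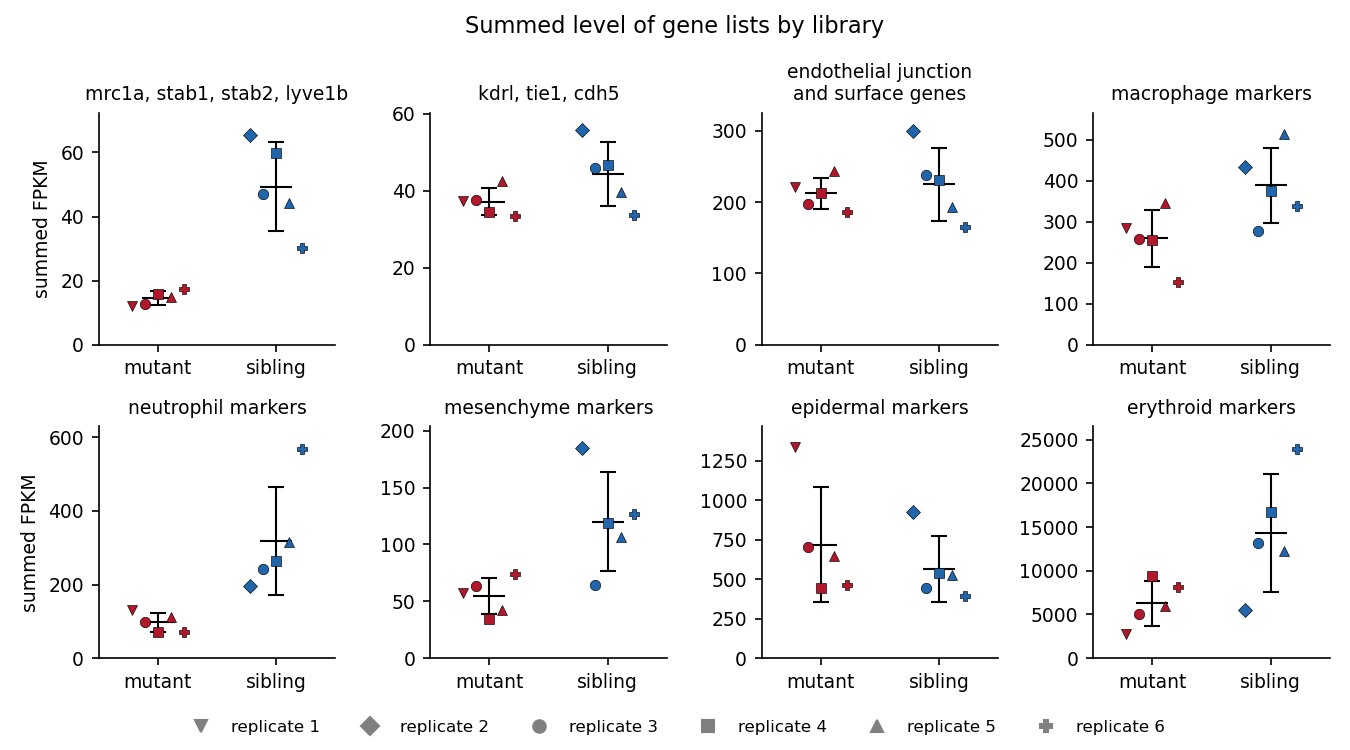
Summed FPKM of 8 gene lists in each library, mutants on the left and siblings on the right of each panel, with mean and SD bars and marker shapes for replicate numbers. The sums of mrc1a, stab1, stab2 and lyve1b and of the neutrophil markers do not overlap between the groups, and those of kdrl, tie1 and cdh5 and of the junction and surface genes do.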

How the data were processed

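Total RNA of gata1-positive cells was depleted of ribosomal RNA and made into stranded libraries, per the labels' protocols. The submitters' processing notes name GRCz10, Cufflinks 2.2.1, Picard, STAR 2.4.2a and Trim Galore, without their order. The authors deposited 1 FPKM value per row and library, per the file headers. These values hold no counts, so depth and counting error are unknown, and no source used here says whether strand entered the counting. Libraries were grouped by title. Starts are given with 1 base added to the deposited value, which makes 37 of 37 mitochondrial rows match the start in the reference gene table.

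The test was limma 3.58.1 (R 4.3.3; lmFit, eBayes with trend) on log2(FPKM + 1) over rows averaging 1 FPKM or more, Benjamini-Hochberg adjusted, with 0.05 as threshold. This scale understates changes of low genes. The step was run on simulated data in which genes varied independently of each other. That run does not cover deviations that genes of a library share. For single genes a two-sided exact permutation test over libraries was run in scipy 1.17.1. The genes and lists were chosen with earlier results of these data known. Of 214 listed symbols, 192 were found as table symbols, 10 through the gene ID's present symbol, and 12 were not matched. Named are the 9 genes, their paralogs, up to 4 genes with the smallest p per list (not all are printed) and the rows most alike. Alternatives were other pseudocounts (0.1 and 5), filters (none and 5 FPKM), 3 scalings, limma without trend or with array weights, a replicate block, sibling 2 counted as mutant, each library left out, and mutant 1 and sibling 2 left out together. Gene sequences are not used here.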

Additional observations from a re-analysis of the deposited data

Results flagged for a closer look

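Among 78 groups of 5 libraries checked for a library far from the others, 1 had one, where chance flags about 1 group in 20. It belongs to none of the 9 genes: foxc1a was at 12.9 FPKM in mutant 5, above the other mutants.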

How the results depend on the processing

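mrc1a and stab1 kept their direction and calls under every alternative except sibling 2 counted as mutant (adjusted p = 0.0627 and 0.206), with log2 fold changes of -2.51 to -1.72 and -1.01 to -0.55. Under that alternative 0 of the 9 genes fell, the log2 fold change of kdrl turned to 0.034, and 300 genes rose and 461 fell. Deviations of same-numbered libraries, replicates 3 to 6, had correlations of -0.02, 0.02, 0.10 and 0.14. Those of different-numbered libraries had -0.17 to 0.14, and not every library correlated best with its own number. So few values cannot settle whether the replicate numbers pair the samples. With the replicate block 2 of the 9 fell, mrc1a and stab1, while 701 genes rose and 1158 fell over all rows. Replicate 1 exists only as a mutant and replicate 2 only as a sibling, so the block estimates differences from replicates 3 to 6 alone. At a mean of at least 5 FPKM 755 genes fell, fewer rows being tested. lyve1b did not reach that filter and was not tested there. Leaving out each library gave 524 to 735 higher and 741 (without sibling 4) to 1238 lower genes, and 4 to 5 of the 9 genes lower and 0 higher. stab2 lost its call in 12 of 22 alternatives, among them no filter (0.0754) and scaling to an equal sum that leaves globin, mitochondrial and rRNA genes out (0.0729). The cause was not tested. The unadjusted exact permutation test had 5 of the 9 under 0.05, those called by limma. kdrl, tie1, cdh5 and fli1a passed the threshold in none of 22 alternatives.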

Other observations

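The remaining marker lists were read against the 14.3% of all tested rows that were called. Of 9 tested mesenchyme markers 4 fell and 0 rose, with sums of 34.7 to 73.7 FPKM in mutants and 64.1 to 185 FPKM in siblings. The collagen chain gene col1a1a averaged 6.20 and 19.8 FPKM in mutants and siblings (limma adjusted p = 6.93e-04). Of 3 tested muscle markers 1 fell, the actin gene acta1b, at 39.2 and 82.2 FPKM in mutants and siblings (limma adjusted p = 0.0186). Of 7 neural markers 0 were called (0 at an unadjusted p under 0.05 in limma).

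Of 6 tested hemogenic and progenitor rows 1 rose and 0 fell. It was gfi1aa, a transcriptional repressor gene, at 10.6 ± 4.96 and 1.97 ± 1.07 FPKM in mutants and siblings (SD, n = 5 each; limma adjusted p = 0.00215). At an unadjusted p under 0.05 in limma 2 of the 6 were higher and 1 lower. The tested runx1 row was not called (limma adjusted p = 0.0532). Its groups did not overlap, at 13.3 to 14.0 FPKM in mutants and 1.85 to 10.7 FPKM in siblings. Of 16 erythroid markers 3 fell and 0 rose, led by urod, a heme synthesis gene, at 123.6 and 375.3 FPKM in mutants and siblings (limma adjusted p = 0.00393). Each of the 16 had a log2 fold change below 0, with a median of -0.91. At an unadjusted p under 0.05 in limma 10 were lower and 0 higher. Without sibling 2 the erythroid markers that fell numbered 12.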
